A study of Mus musculus with 9 samples.

Results

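The genes described are Mpo, Elane, Prtn3, Ctsg and Ms4a3, 5 of the 46517 genes listed in the table of log2 FPKM values (log2 of fragments divided by gene length and library size) from sorted mouse neutrophils. They were taken by gene name, and each name matched 1 row. The libraries came from C57BL/6 mice bearing orthotopic pancreatic ductal adenocarcinoma (OT mice), raised by placing luciferase-marked tumor cells of KPC origin in the pancreas, and cells were collected on day 27. Neutrophils were taken from bone marrow, labelled Ly6G.hi, and from blood and tumor, both labelled Ly6G+, with 3 libraries for each compartment and a pool of 5 mice for each library. The paper describes the compartments as sampled from the same mice, and the labels do not say which libraries share a pool. The stated gate was the same everywhere (Dapi-, CD45+, negative for CD3, B220 and NK1.1, Ly6G+ and Ly6C+), so whether the Ly6G.hi label meant another cut cannot be told apart from the compartment. All groups compared here carried tumors, and neutrophils of mice without tumors were not analysed here.

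Azurophil, or primary, granules are the first granules a neutrophil makes. They are filled at the promyelocyte stage, before the specific and gelatinase granules, and the genes for their contents are then shut off while the proteins stay stored in the mature cell. Mpo encodes myeloperoxidase, the heme enzyme that makes hypochlorous acid from hydrogen peroxide and chloride. Elane, Prtn3 and Ctsg encode neutrophil elastase, proteinase 3 and cathepsin G, serine proteases stored in active form after cathepsin C has removed a short propeptide. Ms4a3 encodes a membrane protein of the MS4A family rather than a granule content, and its transcript marks granulocyte and monocyte progenitors.

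The libraries held between 4580807 and 7949367 recovered reads. Bone marrow and blood libraries were scaled to 0.796 to 0.881 times their totals, and tumor libraries to 1.08 to 1.22 times. All 10 neutrophil identity genes had reads in every library. Ly6g, the gene of the sorted surface marker, had 4766, 5241 and 4527 reads in bone marrow, 580, 654 and 625 in blood, and 456, 200 and 282 in tumor, and its limma log2 fold change against bone marrow was -2.54 in blood and -4.22 in tumor. S100a8 and S100a9, which encode the calprotectin subunits, changed by -1.15 and -1.35 in blood and by -3.00 and -3.07 in tumor. The 9 tumor epithelium markers took between 2747 and 5872 RPM (reads per 1000000 recovered reads of a library) in the tumor libraries, against 8.02 to 11.3 in the marrow libraries. Blood replicate 2 stood apart from the other blood libraries, at 148 against 21.6 and 23.8 RPM for these markers. The 8 platelet markers took 914 to 1184 RPM in the blood libraries and at most 111 in any other. In RNA from sorted populations, fewer cells of a type and less RNA per cell cannot be told apart.

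Elane and Prtn3 lie beside each other on chromosome 10 on the plus strand, with 3072 bases between them. Elane spans chr10:79886247-79888215 and Prtn3 chr10:79874476-79883174. Mpo spans chr11:87793581-87804413 on the plus strand. Ctsg spans chr14:56099881-56102574 and Ms4a3 chr19:11629496-11640851, both on the minus strand. These coordinates are GRCm38 positions from GENCODE M21.

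The upstream sequence of all 5 genes is shown because the genes were high in the same libraries. All 5 matched RefSeq promoter entries (GRCm38.p6), and each stretch is written 5′ to 3′ on the gene's own strand, up to the first annotated exon base in the RefSeq promoter window. The Prtn3 stretch lies inside the annotated gene, in an intron of a transcript that starts further upstream, and ends where the first exon of another Prtn3 transcript begins. Capitals mark matches, on either strand, to 4 short motifs of factors known from granulocyte development: GAGGAA for PU.1, TTNNGNAA for C/EBP factors, TGTGGT for RUNX1 and TAACNG for MYB.
Mpo, chr11:87793534-87793580, plus strand: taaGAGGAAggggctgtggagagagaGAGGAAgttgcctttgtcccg
Elane, chr10:79886062-79886246, plus strand: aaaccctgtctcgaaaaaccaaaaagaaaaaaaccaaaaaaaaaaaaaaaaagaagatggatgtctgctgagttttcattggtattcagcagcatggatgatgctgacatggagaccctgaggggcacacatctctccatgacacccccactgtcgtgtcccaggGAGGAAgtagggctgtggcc
Prtn3, chr10:79879417-79879613, plus strand: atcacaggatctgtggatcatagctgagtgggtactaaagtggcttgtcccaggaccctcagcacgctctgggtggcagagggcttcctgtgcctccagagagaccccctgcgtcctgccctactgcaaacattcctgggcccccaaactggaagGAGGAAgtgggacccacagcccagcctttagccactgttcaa
Ctsg, chr14:56102575-56102824, minus strand: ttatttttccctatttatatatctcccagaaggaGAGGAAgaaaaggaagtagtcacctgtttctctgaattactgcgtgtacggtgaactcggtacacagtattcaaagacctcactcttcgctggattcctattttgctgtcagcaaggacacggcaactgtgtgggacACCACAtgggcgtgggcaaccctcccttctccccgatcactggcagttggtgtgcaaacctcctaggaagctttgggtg
Ms4a3, chr19:11640852-11641101, minus strand: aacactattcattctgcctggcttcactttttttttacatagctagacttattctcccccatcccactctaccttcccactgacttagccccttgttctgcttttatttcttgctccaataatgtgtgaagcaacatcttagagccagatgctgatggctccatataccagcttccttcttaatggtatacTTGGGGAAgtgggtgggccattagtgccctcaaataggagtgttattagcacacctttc

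GAGGAA was found in the 250 bases before the RefSeq start of 4 of the 5 genes, against 23.3% of 32851 mouse promoters searched over the same length. Mpo had 2 copies, Elane, Prtn3 and Ctsg had 1 each, and Ms4a3 had none. In Elane and Prtn3 the copy began 85 and 95 bases before the RefSeq start. The letters gt followed it in each, as they did the Mpo copy that began 224 bases before the RefSeq start. The C/EBP pattern was found in Ms4a3 alone, as TTGGGGAA, against 36.8% of all promoters. The RUNX1 pattern was found in Ctsg alone, on the reverse strand as ACCACA, against 14.05%. The MYB pattern was found in Mpo and Elane, past that first exon base and so in bases not printed, against 19.8%. The printed matches do not overlap each other. A match describes letters only, and binding was not measured.

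Bone marrow neutrophils held nearly all reads of these genes. Mpo had 7748, 4928 and 8508 reads in the bone marrow replicates 1 to 3, 0, 29 and 6 in the blood replicates, and 42, 33 and 43 in the tumor replicates. The corresponding log2 FPKM values were 6.74, 6.33 and 6.89 in bone marrow, -8.23, -1.05 and -3.04 in blood, and -0.67, -1.30 and -0.99 in tumor. Every bone marrow value lay far above the other 6 libraries, while the blood values spread widely and overlapped the tumor values. A library without a read takes a value set by a constant that the authors added before the log, 0.25 reads in a library of mean size, and by the gene's length.

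Elane, the elastase gene, had 2306, 1479 and 2089 reads in bone marrow, 0, 9 and 0 in blood, and 10, 19 and 31 in tumor. Its log2 FPKM was 7.50, 7.10 and 7.37 in bone marrow and -0.21, 0.42 and 1.05 in tumor. In blood it was -0.21 in replicate 2, and the other 2 libraries held no read and were listed at -5.72. The lowest tumor library and blood replicate 2 were thus level.

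Ctsg, the cathepsin G gene, had 595, 373 and 677 reads in bone marrow, 0, 1 and 0 in blood, and 4, 0 and 3 in tumor. Its log2 FPKM was 5.05, 4.61 and 5.24 in bone marrow, and outside it the highest value was -1.98, in tumor replicate 1. Of the 5 genes it had the fewest reads outside the marrow, 1 in blood and 7 in tumor.

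Prtn3, the proteinase 3 gene, differed from the other 4 in that every library held reads. It had 714, 444 and 668 reads in bone marrow, 16, 18 and 13 in blood, and 11, 34 and 24 in tumor. Its log2 FPKM was 3.62, 3.17 and 3.53 in bone marrow, -1.09, -1.42 and -1.63 in blood, and -2.27, -0.94 and -1.51 in tumor. The blood values lay inside the tumor range. The first 159 bases of the Prtn3 locus, upstream of its RefSeq start, overlap Plppr3 (listed as Lppr3) on the opposite strand, which had 116, 62 and 124 reads in bone marrow, 27, 24 and 12 in blood, and 49, 69 and 52 in tumor. The library protocol does not mark strand, so reads in the overlap cannot be told apart, and the part of Plppr3 in the Prtn3 counts was not tested.

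Ms4a3, the progenitor marker, had 408, 279 and 472 reads in bone marrow, 0, 3 and 1 in blood, and 5, 9 and 4 in tumor. Its log2 FPKM was 2.43, 2.12 and 2.65 in bone marrow, -8.30, -4.31 and -5.51 in blood, and -3.75, -3.21 and -4.40 in tumor. It was the lowest of the 5 in bone marrow, and its blood and tumor values overlapped in blood replicate 2. All 5 genes thus had every bone marrow library above every other library, as did 16.0% of all genes tested below.

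**Figure D1:**
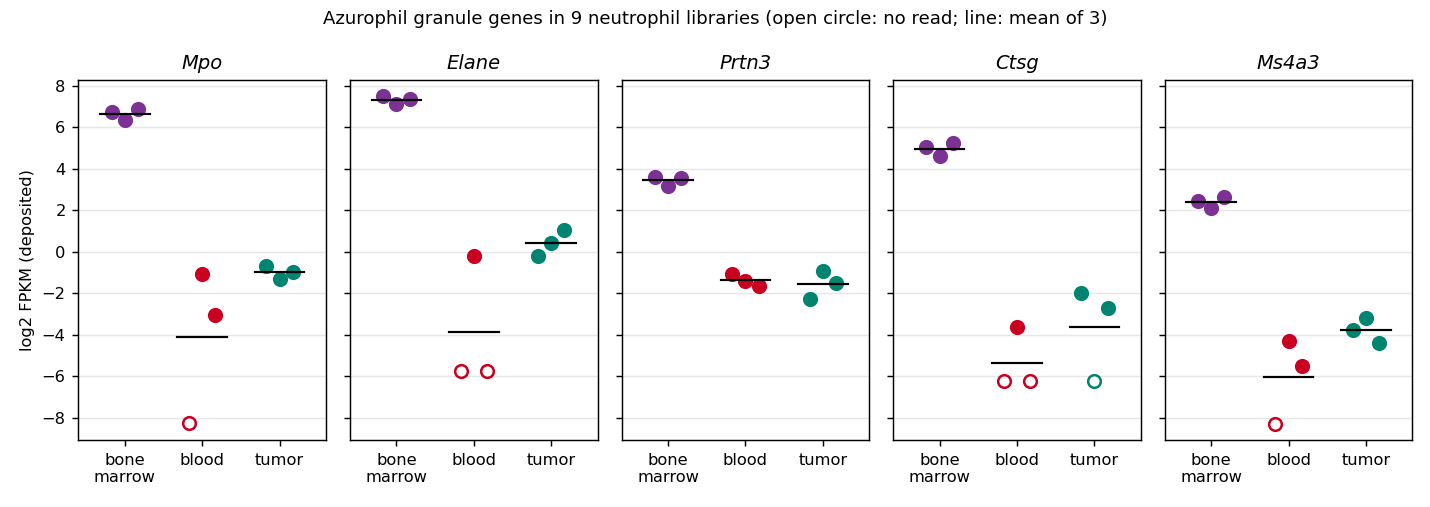
Log2 FPKM (y axis) of each gene in the 3 bone marrow, 3 blood and 3 tumor libraries (x axis), with the mean of 3 as a line and open circles for libraries without a read. The bone marrow libraries sit above all others in every panel, and Prtn3 is the only gene with reads in all 9 libraries.

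For levels between genes, reads were divided by the length of the merged exons. The deposited FPKM used the whole genomic span for 4 of these genes, introns included. For Elane it used 1905 bases, against a span of 1969 and merged exons of 984. In bone marrow the reads per kilobase of exon and per 1000000 of scaled library size were 322 ± 61.5 for Mpo and 312 ± 42.9 for Elane (SD, n = 3), and these ranges overlapped. Ctsg followed at 82.9 ± 17.7 and Prtn3 at 55.0 ± 8.59, with the lowest Ctsg library at 63.8 and the highest Prtn3 library at 61.6. Ms4a3 was lowest at 32.1 ± 5.78, with no library as high as the lowest Prtn3 library at 45.3. On the deposited scale Elane stood above Mpo, at mean log2 FPKM values of 7.32 and 6.65, so the order of those 2 genes depended on the length used. Among all genes ranked per exon length in bone marrow, Mpo stood at place 154, Elane at 160, Ctsg at 600, Prtn3 at 887 and Ms4a3 at 1418.

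Blood neutrophils were compared first with bone marrow neutrophils of tumor-bearing mice. All 5 genes were lower in blood in limma's test across 7794 genes, with Benjamini-Hochberg adjustment over all of them. A gene was tested where 3 or more of the libraries exceeded 0 on the log2 FPKM scale. Each of the 5 entered through the bone marrow libraries, so neither the count nor the places in the order are read as evidence. Of all genes tested, 23.6% were called lower in blood, and 31.0% had every blood library below every bone marrow library, as had all 5 genes.
Elane fell by 11.21 on the log2 scale (SE 1.35, adjusted p = 0.000464), the lowest fold change of all genes tested. Mpo fell by 10.76 (SE 1.55, adjusted p = 0.00112) and Ctsg fell by 10.33 (SE 1.15, adjusted p = 0.00033), the next places in the order. Ms4a3 fell by 8.43 (SE 0.94, adjusted p = 0.000325), at place 10. Prtn3 fell by 4.82 (SE 0.34, adjusted p = 4.36e-05), at place 94, with the smallest change and the smallest error of the 5. The exact two-sided permutation p was 0.1 for each gene alone, the smallest that 3 against 3 libraries allow.

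Fitted changes of the genes with empty libraries depend on the added constant, so ratios of summed reads were computed beside them, with exact counting intervals at 95% that leave out the spread between pools. Relative to the authors' scaled library sizes, the ratio of bone marrow to blood was 453 for Mpo (326 to 651) and 489 for Elane (257 to 1070). It was 29.1 for Prtn3 (21.8 to 39.8) and 217 for Ms4a3 (84.6 to 798). The Ctsg ratio of 1232 rested on 1 blood read and ran from 221 to 48708. The Prtn3 interval did not overlap that of any other gene. Blood replicate 2 weighed on these ratios: without it the Mpo ratio was 1607 (738 to 4379) on 6 blood reads and the Ms4a3 ratio 527 (94.5 to 20850) on 1. Elane and Ctsg then had no blood read, and against a floor of 3 reads over both remaining libraries bone marrow was at least 891-fold higher for Elane and at least 249.5-fold higher for Ctsg. The fitted changes without blood replicate 2 were -12.29 for Mpo, -13.04 for Elane, -11.19 for Ctsg and -9.30 for Ms4a3. Without blood replicate 1 they were -8.70 for Mpo, -10.29 for Elane and -7.31 for Ms4a3, and without blood replicate 3 Elane was also at -10.29.

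Tumor neutrophils were compared with bone marrow neutrophils in the same fit, with the same marrow libraries. All 5 genes were again lower, and 32.9% of all genes tested were called lower in tumor, where 37.7% had every tumor library below every bone marrow library. Ctsg fell by 8.60 on the log2 scale (SE 1.15, limma adjusted p = 0.000444), at place 4 from the lowest of 7794 genes. Mpo fell by 7.64 (SE 1.55, adjusted p = 0.00384), at place 5. Elane fell by 6.90 (SE 1.35, adjusted p = 0.00321), at place 7. These are places among the genes tested, which each of the 5 entered through its bone marrow libraries, so they are not read as evidence.
Ms4a3 fell by 6.18 (SE 0.94, adjusted p = 0.000863), at place 13, and Prtn3 fell by 5.01 (SE 0.34, adjusted p = 1.5e-05), at place 24. By summed reads, the ratio of bone marrow to tumor was 205 for Mpo (171 to 248), 112 for Elane (86.8 to 147) and 30.3 for Prtn3 (23.8 to 39.1). The ratios were 269 for Ctsg (130 to 669) and 73.6 for Ms4a3 (46.4 to 125). For Ctsg, with 7 tumor reads, the fitted change was -7.31 and the ratio 175 (84.8 to 436) without tumor replicate 2, and -9.43 and 448 (153 to 2174) without tumor replicate 1. The median change over all genes tested was -0.21 in tumor and -0.04 in blood, each against bone marrow. When library sizes were plain totals the tumor median became 0.21, and the 5 genes stayed lower in both comparisons.

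**Figure D2:**
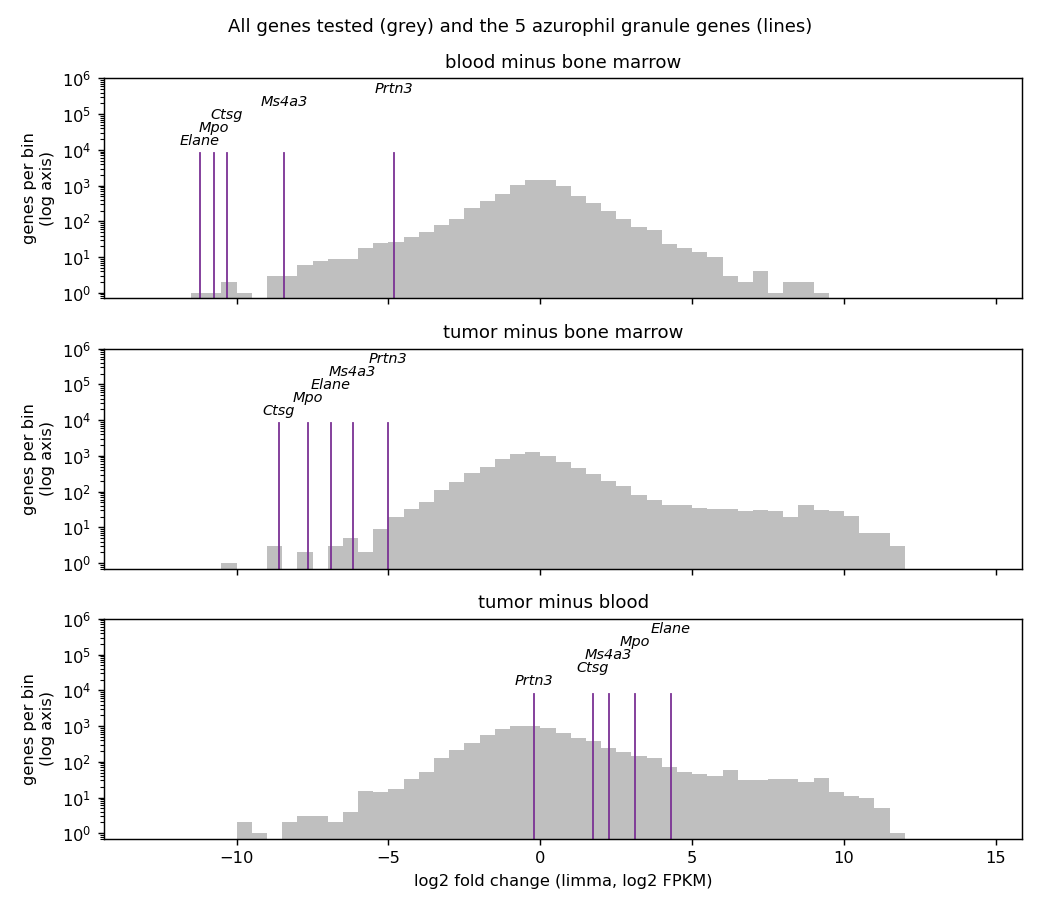
Number of genes (y axis, log axis) by limma log2 fold change (x axis) for blood minus bone marrow, tumor minus bone marrow and tumor minus blood, with the 5 genes as lines. Against bone marrow the 5 genes lie in the low tail, from -11.21 to -4.82 in blood and from -8.60 to -5.01 in tumor, and between tumor and blood they lie between -0.19 and 4.30.

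Tumor and blood neutrophils, where few reads remained, were then compared with each other. Elane was higher in tumor, by 4.30 on the log2 scale (SE 1.35, limma adjusted p = 0.0239), and 28.1% of all genes tested were called higher. The Elane groups overlapped, and the call was lost without blood replicate 1 (adjusted p = 0.0774), blood replicate 3 (0.0774), tumor replicate 2 (0.0562) or tumor replicate 3 (0.0698). It was also lost with no filter on low values (adjusted p = 0.135) and with those 2 compartments alone in the fit (0.063). The differences of Mpo (3.12, SE 1.55, adjusted p = 0.115), Ms4a3 (2.25, SE 0.94, adjusted p = 0.0681) and Ctsg (1.73, SE 1.15, adjusted p = 0.225) did not pass. Prtn3 differed by -0.19 (SE 0.34, adjusted p = 0.648), with a 95% interval from -0.99 to 0.60. Quantile normalization turned the differences of Ctsg and Ms4a3 to -1.13 and -1.30, and plain library totals turned that of Prtn3 to 0.25; under quantile normalization Prtn3 was called lower in tumor (-1.47, limma adjusted p = 0.0411). The exact two-sided permutation p was 0.2 for Mpo, Elane and Ms4a3, 0.4 for Ctsg and 0.8 for Prtn3.

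Blood replicate 2 held 29 of the 35 Mpo reads, all 9 Elane reads, the single Ctsg read and 3 of the 4 Ms4a3 reads found in blood, and it was also the blood library highest in the tumor epithelium markers (Krt8, a keratin, had 406 reads there against 3 and 5). Without it, Mpo was 4.65 (limma adjusted p = 0.0207) and Ms4a3 3.12 (adjusted p = 0.0156) higher in tumor on the log2 scale, and 3 of the 5 genes passed. Without tumor replicate 2, which had no Ctsg read, Ctsg was 3.02 higher (limma adjusted p = 0.0158). Both libraries are named here for their reads of these same genes, so a wider difference without them follows from that choice. These fits show how much rested on a single library and are not read as evidence of a difference. By summed reads, the ratio of tumor to blood was 2.21 for Mpo (1.503 to 3.32) and 4.37 for Elane (2.15 to 10.01). The ratios for Prtn3 (0.962, 0.654 to 1.42), Ctsg (4.59, 0.589 to 207) and Ms4a3 (2.95, 0.971 to 12.0) had intervals that held 1. All these intervals cover counting error only and leave out the spread between pools, so they do not test the compartments. Without blood replicate 2 the ratio was 7.83 for Mpo (3.49 to 21.8) and 7.16 for Ms4a3 (1.13 to 298), Elane was at least 7.96-fold higher in tumor against a floor of 3 reads, and Ctsg had no blood read. The Ms4a3 interval also lay above 1 without tumor replicate 3 (3.62, 1.14 to 15.1), and the Ctsg ratio was 2.75 (0.221 to 144) without tumor replicate 1 and 7.04 (0.904 to 317) without tumor replicate 2. The part of the other cells' markers in these values was not tested.

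Counted together, the 5 genes took 1481, 1055 and 1648 RPM in the bone marrow libraries. They took 3.49, 8.78 and 3.59 in blood and 13.2, 13.6 and 16.1 in tumor. Each tumor library stood above each blood library on this sum, which sets reads against plain totals.

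Within bone marrow the proportions were steady from pool to pool. Mpo took 65.8%, 65.7% and 68.5% of the reads of the 5 genes, Elane 19.6%, 19.7% and 16.8%, and Prtn3 6.07%, 5.92% and 5.38%. Ctsg took 5.05%, 4.97% and 5.45% and Ms4a3 3.47%, 3.72% and 3.802%. Prtn3 took a larger and Mpo a smaller share of the few reads outside the marrow. Prtn3 supplied 49.0% of the 96 blood reads and 25.4% of the 272 tumor reads, against 5.76% of all bone marrow reads of the 5 genes, and Mpo 36.5% and 43.4% against 66.9%. Blood replicate 2 held 60 of the 96 blood reads, and without it Prtn3 supplied 80.6% and Mpo 16.7% of the other 36. Blood replicate 1 held 16 reads of these genes, and all of them were counted for Prtn3. Plppr3 overlaps the start of the Prtn3 locus, and its part in these Prtn3 shares was not tested.

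**Figure D3:**
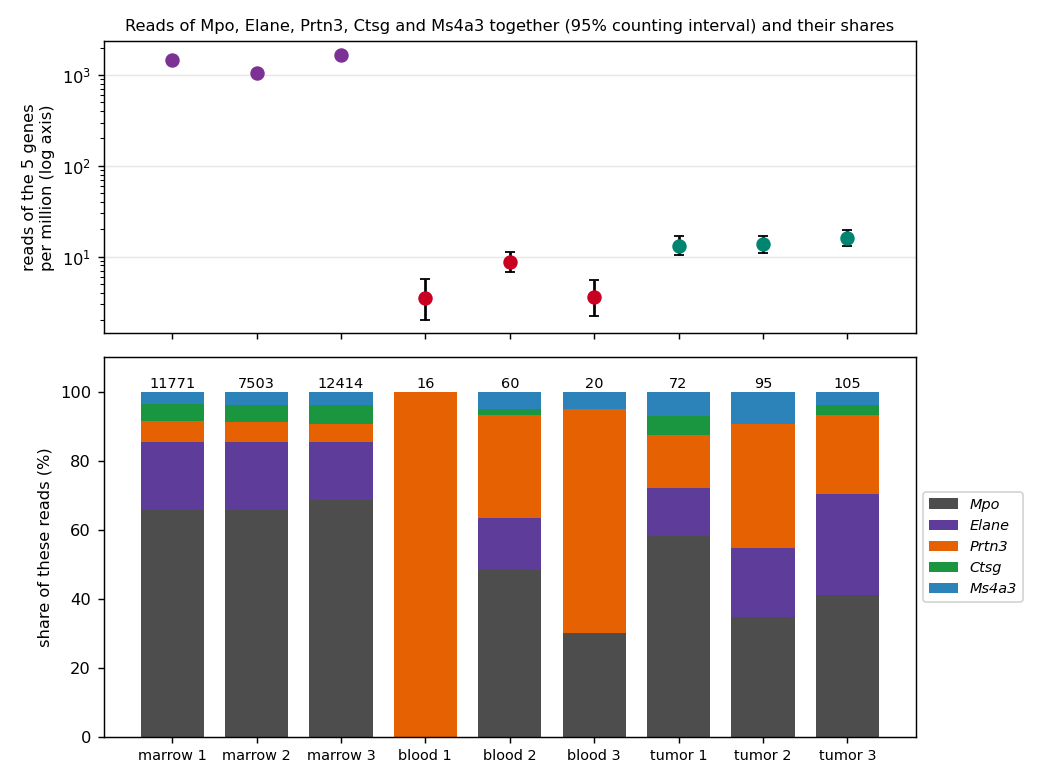
Upper panel, RPM of the 5 genes together (log axis) in each library with exact 95% counting intervals. Lower panel, the share of these reads from each gene (%), with the number of reads above each bar. Mpo leads in every bone marrow library. Prtn3 leads in blood replicates 1 and 3 and, at 35.8% against 34.7% for Mpo, in tumor replicate 2. The part of Plppr3 in the Prtn3 reads was not tested.

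The bone marrow pools did not carry the same amount. Replicate 2 was the lowest of the 3 for all 5 genes, between 0.22 and 0.35 below the group mean on the log2 scale, and 28.6% of all genes tested were lowest there. The 12 specific and gelatinase granule genes behaved differently in the same library, where none was lowest and their median deviation was 0.11. Of 14 cell cycle genes 9 were lowest there, and of 6 tested genes of eosinophils, basophils and mast cells 5 were. So were 4 of 5 lymphocyte genes, 5 of 8 transcription factors of granulocyte development and 5 of 8 processing and packing genes. Among neutrophil identity genes 2 of 10 were, and among red cell genes 0 of 5.

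The neighbours of the 5 genes did not share a single pattern. Cfd, which encodes complement factor D and follows Elane, had no read in bone marrow, 1, 0 and 0 in blood, and 217, 145 and 74 in tumor. Lpo, the lactoperoxidase gene next to Mpo, had no read in any library, nor had Gzme beside Ctsg or Oosp2 beside Ms4a3. Bzrap1, on the other side of Mpo, had 103, 53 and 60 reads in bone marrow, 18, 38 and 12 in blood and 16, 64 and 2 in tumor. Mcpt8, a basophil protease gene on the other side of Ctsg, had 150, 63 and 107 reads in bone marrow, 1, 0 and 0 in blood and 3, 0 and 0 in tumor. Ms4a2, the beta chain of the IgE receptor and the other neighbour of Ms4a3, had 58, 23 and 45 reads in bone marrow, 2, 0 and 1 in blood and none in tumor. An antisense gene over Mpo, Gm11505, had 1 read in all.

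Some markers of basophils and eosinophils moved with the 5 genes. Among the 11 genes of that list, Prss34, a basophil protease, had 675, 403 and 518 reads in bone marrow, 0, 2 and 0 in blood and 1, 0 and 0 in tumor. Prg2, an eosinophil granule protein, had 167, 138 and 326 reads in bone marrow, none in blood and 0, 2 and 0 in tumor. Epx, eosinophil peroxidase and a relative of Mpo, had 141, 78 and 120 reads in bone marrow and none elsewhere. Siglecf went the other way, with 231, 160 and 157 reads in bone marrow, 566, 875 and 534 in blood and 1001, 1691 and 1115 in tumor. So did Il5ra, the interleukin-5 receptor gene, with 5, 0 and 2 reads in bone marrow, 10, 0 and 10 in blood and 292, 300 and 459 in tumor. The whole list took 132 to 198 RPM in the marrow libraries, against 102 to 130 in blood and 239 to 286 in tumor. Nearly all of the blood sum came from Siglecf, and nearly all of the tumor sum from Siglecf and Il5ra. The sums therefore do not show the low reads of the other markers in blood and tumor. Epx, Prg2 and Prg3 were at 0 in blood, and Epx, Prg3, Cpa3 and Ms4a2 at 0 in tumor. The 10 lymphocyte markers took 27.6 to 56.5 RPM in the marrow libraries, 85.9 to 156 in blood and 5.69 to 12.6 in tumor, where Klrb1c and Ncr1 were at 0. The 11 monocyte and macrophage markers took 1490 to 1672 RPM in the marrow libraries, with a range of 1322 to 1598 in blood and 442 to 599 in tumor. The largest part of the marrow sum was Ly6c2, with 6737, 6589 and 6560 reads. It is a gene of the Ly6C marker in the sort gate, so this sum does not measure monocytes alone. The part of these cells in the values of the 5 genes was not tested.

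The granule genes of later stages were compared next. For this and the following lists, the counts stand beside those of all 7794 genes tested. Against bone marrow, 32.9% of all were called lower in tumor and 23.6% in blood, while 1745 genes were higher in tumor and 1605 in blood. In tumor against blood, 28.1% were higher and 34.5% lower. List counts near these shares are not read as results about a list. All 12 specific and gelatinase granule genes were lower in tumor than in bone marrow, with a median log2 fold change of -3.38, and 11 of 12 were lower in blood, with a median of -3.06. The fold change of Camp, the cathelicidin gene, was -4.56 in tumor and -6.57 in blood, and that of Itgb2l, an integrin gene, was -4.05 and -4.61. Lcn2, which encodes the iron-carrier binding lipocalin NGAL, changed by -4.09 and -2.80. The median of the 5 azurophil granule genes was -6.90 in tumor and -10.33 in blood. The blood median was the value of Ctsg, with 0, 1 and 0 blood reads, so it depends on the added constant. In blood the 12 genes ran from -6.57 to 0.02, and some fell further than Prtn3 at -4.82. In tumor Camp had the largest fall of the 12, short of Prtn3 at -5.01. Between tumor and blood, 4 of the 12 were higher in tumor and 5 lower; Camp was 2.02 higher, and Lcn2 fell by 1.29.

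Other proteins of azurophil and lysosome-type granules did not follow the 5 genes as a group. Of 18 listed genes 16 were tested, and in tumor against bone marrow 6 were higher, 7 lower and 3 did not pass; in blood 3 were higher, 6 lower and 7 did not pass. Prss57, the azurophil serine protease NSP4, had 202, 168 and 240 reads in bone marrow, 42, 81 and 83 in blood and 11, 13 and 21 in tumor. Against bone marrow it changed by -3.97 in tumor and by -1.19 in blood, and between tumor and blood it fell by 2.78 (limma adjusted p = 5.92e-05), where none of the 5 genes was called lower and 34.5% of all genes tested were. Lyz2, the main myeloid lysozyme gene, changed by -3.91 in tumor and by -2.33 in blood. Man2b1, a lysosomal mannosidase, fell by 2.01 in tumor and was 0.61 higher in blood. Lyz1 shares a near-identical sequence with Lyz2 and is uncertain, with 65, 66 and 52 reads in bone marrow. Bpi had no read in any library.

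Among genes that process and pack azurophil proteins, 8 of 10 were tested. In tumor against bone marrow 4 were higher and 3 lower, and in blood 1 was higher and 5 were lower. Ctsc, whose enzyme cathepsin C activates the serine proteases, had 1248, 811 and 1623 reads in bone marrow, 561, 644 and 496 in blood and 738, 919 and 675 in tumor. It fell by 0.80 in tumor (limma adjusted p = 0.0198), and its difference of -0.64 in blood did not pass (adjusted p = 0.0579). Cst7, the cystatin F gene whose product restrains cathepsin C, changed by -5.01 in tumor and by -3.28 in blood. Srgn, the proteoglycan serglycin that holds granule proteases, was 1.66 higher in tumor and 1.95 higher in blood. Stxbp2, a granule fusion factor, changed by -1.68 in tumor and by -0.59 in blood, and Hspa5, the chaperone BiP, was 1.32 higher in tumor.

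Of 12 listed inhibitors of neutrophil serine proteases 4 were tested. Serpinb1a, a cytosolic inhibitor of elastase, cathepsin G and proteinase 3, had 7986, 7717 and 8855 reads in bone marrow, 214, 395 and 293 in blood and 1347, 914 and 1565 in tumor. It fell by 4.38 in blood (limma adjusted p = 1.4e-05) and fell by 2.90 in tumor (adjusted p = 2.15e-05), and it was 1.48 higher in tumor than in blood (adjusted p = 0.000571). Slpi, the secretory leukocyte protease inhibitor, was 0.72 higher in blood than in bone marrow (adjusted p = 0.00707). Serpinb6b and Serpina3n were 8.72 and 7.57 higher in tumor than in bone marrow, where they had 11, 0 and 1 reads and 0, 1 and 0 reads.

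Of 12 listed transcription factors of granulocyte development 8 were tested, and 5 were lower and 1 higher in tumor, 4 lower and none higher in blood. Cebpe, needed for the step from promyelocyte to myelocyte, had 809, 588 and 588 reads in bone marrow, 2, 7 and 30 in blood and 20, 43 and 74 in tumor. It changed by -5.97 in blood and by -4.21 in tumor. Spi1, which encodes PU.1, fell by 2.25 in tumor and differed by -0.46 in blood (limma adjusted p = 0.569). Irf8 changed by -3.17 in tumor and by -1.61 in blood, and Cebpd fell by 2.38 in tumor. Gfi1 and Myb were not tested, since their log2 FPKM was not over 0 in 3 libraries. Gfi1 had 76, 32 and 38 reads in bone marrow, 0, 1 and 6 in blood and 0, 8 and 0 in tumor, and Myb had 245, 201 and 215, then 1, 11 and 6, then 8, 2 and 6.

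Of 14 promyelocyte and progenitor genes 8 were tested, and 6 were lower in blood with none higher, while 4 were lower and 2 higher in tumor. Fcnb, the ficolin B gene of early neutrophils, had 1522, 1400 and 1618 reads in bone marrow, 3, 22 and 6 in blood and 94, 65 and 93 in tumor, and changed by -7.22 in blood and by -4.37 in tumor. Igfbp4 went both ways, by -4.30 in blood and by 2.73 in tumor. Of 14 cell cycle genes all were lower in blood, with a median of -5.39, and 8 were lower in tumor, with a median of -1.11. In tumor against blood 13 of the 14 were higher, with a median of 4.20, beside a single call among the 5 azurophil granule genes. The 8 fibroblast and endothelial markers took 1163 to 1407 RPM in the tumor libraries, against 17.9 to 23.9 in marrow and 30.7 to 38.9 in blood. The 8 pancreatic acinar markers took 712 to 3078 RPM in tumor, against 1.41 to 5.97 in marrow and 2.62 to 8.49 in blood. The part of these cells and of tumor epithelium in the values above was not tested.

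**Figure D4:**
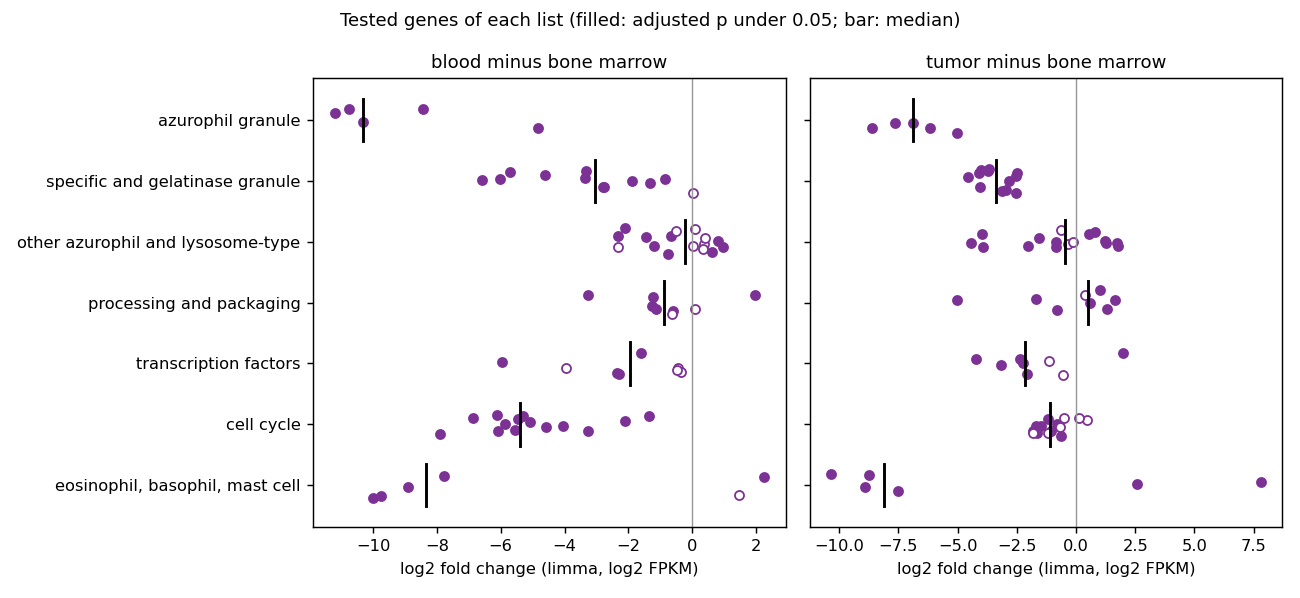
Limma log2 fold change (x axis) of each tested gene in 7 gene lists (y axis), for blood minus bone marrow and tumor minus bone marrow, with filled points for an adjusted p under 0.05 and a bar at each list's median. The medians of the azurophil granule genes are -10.33 and -6.90, against -3.06 and -3.38 for specific and gelatinase granule genes. The median of -10.33 is the value of Ctsg, with 0, 1 and 0 blood reads, and depends on the added constant. The specific and gelatinase granule genes run from -6.57 to 0.02 in blood.

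The genes most like the group over the 9 libraries were found by Pearson correlation with the mean of the 5 standardized profiles. They were Pnpla1 (r = 0.986), Mgst2 (0.985), Pxylp1 (0.983), F730016J06Rik (0.982), Fcnb (0.980), Nt5c3 (0.980), Uqcrc2 (0.976), Fbxo10 (0.976), Paqr7 (0.976) and Itgb2l (0.975). Of 7789 other genes tested, 80 had an r over 0.95. The 5 genes themselves had r between 0.934 for Prtn3 and 0.989 for Ms4a3. The points share libraries and 3 compartments, so these values describe likeness of pattern and no more. Fcnb, for example, was high in every bone marrow library, low in tumor and lower in blood, which is the order that Mpo, Elane, Ctsg and Ms4a3 showed by their means.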

How the data were processed

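RNA from sorted neutrophils was sequenced by the authors in 9 libraries with the SMARTSeq v2 protocol, which does not mark strand. Reads were mapped with STAR 2.5.2b to GRCm38 and counted with featureCounts 1.5.0 on GENCODE M7 genes, and edgeR 3.8.6 is named by the authors in the processing notes. The strand setting of the counting is not given in the sources used here. The deposited values are log2 FPKM, which the authors computed from scaled library sizes with a constant of 0.25 reads and, for 84.8% of the identifiers found in GENCODE M21, the genomic span as length. Whole reads were recovered from these values for 46517 of 46517 genes within 0.01 of a read, and recovery and fit were tested on simulated data.

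Compartments were compared with limma 3.58.1 in R 4.3.3 (1 coefficient per compartment, intensity trend) on 7794 genes that exceeded 0 on the log2 FPKM scale in 3 or more libraries, with Benjamini-Hochberg adjustment and a threshold of 0.05. The unit required no count model in the main fit; limma-voom on recovered reads was an alternative. Fits that left out a library or a compartment kept the same genes. The replicate numbers of the labels were not taken as pairs, since the labels do not state a pairing. Only 1 of 9 same-numbered pairs had deviations correlated over 0.1, which cannot show that pairing was absent. The p-values measure the spread between pools of 5 mice. Named genes were the 5 genes, up to 4 of each list with the largest change in tumor against bone marrow, genes with a direct role in azurophil granules, the nearest protein-coding neighbours and the 10 most similar profiles; Siglecf, Mcpt8, Ms4a2, Krt8, Myb, Slpi and the markers at 0 were added after their values were seen. The members and lists were chosen with earlier results of these data known. Intervals of reads and of read ratios cover counting error only, while the interval of the fitted Prtn3 difference comes from the limma SE.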

Additional observations from a re-analysis of the deposited data

How the results depend on the processing

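Under 23 alternatives all 5 genes stayed lower in blood and in tumor than in bone marrow, each past the threshold; values ran from -13.04 (Elane in blood) to -2.54 (Ms4a3 in tumor, log2(FPKM + 1)). Tumor against blood was less settled. Elane lost its call with no filter on low values (4.30, limma adjusted p = 0.135) and with only the 2 compartments compared (4.30, adjusted p = 0.063), so 0 genes were higher in each. Quantile normalization gave Prtn3 -1.47 (adjusted p = 0.0411), 1 gene lower, and reversed Ctsg to -1.13 and Ms4a3 to -1.30. Plain library totals reversed Prtn3 to 0.25 and called Ms4a3 at 2.57 (adjusted p = 0.032), with 2 genes higher. Without 1 library, the genes higher in tumor ran from 0 to 3, Mpo from 1.06 to 4.65, Elane from 3.38 to 6.14, Prtn3 from -0.51 to 0.15 (above 0 without tumor replicate 1), Ctsg from 0.90 to 3.02 and Ms4a3 from 1.12 to 3.12. In tumor against bone marrow Ctsg ran from -9.43 without tumor replicate 1 to -7.31 without tumor replicate 2. Ratios and shares of reads without 1 library were added after seeing the data. Causes were not tested.

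Counts over all genes moved under several alternatives, of which the filters and limma-voom also changed the genes tested and the others kept the same 7794. Tumor against bone marrow had 1745 higher and 2566 lower. Higher became 3396 with no filter, 849 with a filter of log2 FPKM over 2, 4469 with at least 5 reads in any library and 5192 with limma-voom; lower became 1529 with the filter over 2 and 1654 with plain totals. Blood against bone marrow had 1605 higher and 1841 lower. Higher became 1036 with the filter over 2, 2449 with limma-voom and 968 with a log2 fold change of 1 or more in size required; lower became 888, 2912 and 1208, and 2890 with at least 5 reads. Tumor against blood had 2194 higher and 2686 lower. Higher became 4611 with no filter, 918 with the filter over 2, 5740 with at least 5 reads and 5871 with limma-voom; lower became 1644 with the filter over 2. With merged exon length the bone marrow means became 8.31 for Mpo, 8.28 for Elane, 5.77 for Prtn3, 6.35 for Ctsg and 4.99 for Ms4a3.

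With the replicate number as a block, Elane in tumor against blood kept its call (4.30, adjusted p = 0.0324) and no call of the 5 genes changed. Same-numbered libraries correlated between -0.0714 and 0.108, and 4 of 9 were best with their own number. The numbers were not taken as pairs, though these correlations cannot show that pairing was absent. Under 10 reads in most blood libraries limit what the comparison of tumor and blood can show.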
